A study of Bos taurus with 30 samples.

Results

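The DLK1-DIO3 region is an imprinted stretch of bovine chromosome 21 that holds one of the densest groups of miRNA genes in mammals, and its miRNAs were examined here in the hypothalamic arcuate nucleus (ARC) of 30 bull calves. Members were chosen by name, as the rows of the miRNA table whose miRNA number is among 40 numbers known from the region, with any letter or arm suffix. A row was present for 39 of the 40 numbers, and 56 of the 1030 rows of the table matched. Of these, 54 had at least 1 read in some calf, among 863 such rows in all, and these 54 mature miRNAs from 51 precursors are the members described. The other 2 rows, miR-409b and miR-544b, are listed at 0 in every calf. All 54 members also passed the filter on low counts, which kept 476 miRNAs for testing.

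Each calf was a Holstein-Friesian bull and gave 1 small RNA library from the ARC, the part of the hypothalamus that senses metabolic state. HI calves (n = 15) were given 1.5 kg of milk replacer in 10 litres daily with concentrates without restriction, and MOD calves (n = 15) were given 0.5 kg of milk replacer in 4 litres daily with 0.5 kg of concentrates. Both diets were fed from 2 weeks of age and tissue was taken at 12 weeks. The libraries held between 6291376 and 21083250 miRNA reads, in 2 depth classes with a gap between them. The 21 shallower libraries (12 HI, 9 MOD) held at most 8988039 reads and the 9 deeper libraries (3 HI, 6 MOD) at least 17193358.

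Imprinting means that a gene is read from the chromosome of only one parent. In this region the protein genes DLK1, RTL1 and DIO3 are read from the paternal chromosome, while the long non-coding RNAs, including MEG3 and MEG8, and the miRNAs are read from the maternal one. The miRNAs lie in 2 main groups on the same strand, are processed from long transcripts and are best known from brain, placenta and stem cells. Those of the first group beside MEG3 include miRNAs made from the antisense transcript of RTL1, which they can cleave. The second group, from miR-379 to miR-656, is induced by neuronal activity and includes miR-134, which restrains the growth of dendritic spines by repressing LIMK1.

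By RefSeq gene names on the assembly ARS-UCD2.0, 59 miRNA genes lie between DLK1 and DIO3, and 52 of them carry members or their unread rows. The order from the DLK1 side begins with the first group of 7 members (miR-493, miR-665, miR-431, miR-433, miR-127, miR-432 and miR-136). Next comes miR-370, beside MEG8. The second group of 46 members closes the order. The 2 genes of the unread miR-544b lie on chromosomes 13 and 24, outside the region, and the gene of miR-409b shares its interval with that of miR-409a.

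Levels are given in the deposited unit, CPM (read counts scaled to a fixed total) over library sizes scaled by the trimmed mean of M values (TMM), with no scaling for length. Together the members took 10.5% ± 1.81 (SD, n = 30 calves) of all miRNA reads, from 6.57% to 14%. The share was 10.7% ± 1.99 (SD, n = 15) in HI calves and 10.3% ± 1.67 (SD, n = 15) in MOD calves, so the means differed by less than the spread between calves of 1 diet. With miR-127 left out, the shares were 5.87% ± 1.27 in HI and 5.85% ± 1.09 in MOD calves.

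The total was carried by few miRNAs. miR-127, miR-411a and miR-410 made up 85.4% ± 2.38 (SD, n = 30) of the members' reads. miR-127, a miRNA of the RTL1 antisense transcript, had the highest level of all members at 46320 ± 11170 CPM (SD, n = 30) and ranked 4 among all miRNAs of the table. miR-411a followed at 28560 ± 4352 CPM and miR-410 at 14110 ± 2715 CPM, ranks 8 and 19. The order of these 3 was clear of the spread between calves in their SDs. The next were miR-380-3p at 3907 ± 715.2 CPM, miR-154c at 2031 ± 443.9 CPM, miR-432 at 1158 ± 248.7 CPM and miR-323 at 910.7 ± 208.0 CPM. miR-432 and miR-323 lay within 1 SD of each other, as did miR-323 and the next, miR-487b at 731.8 ± 120.5 CPM. miR-136 at 637.2 ± 94.17 CPM and miR-369-3p at 575.3 ± 99.05 CPM completed the 10 most abundant and also lay within 1 SD of each other.

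**Figure D1:**
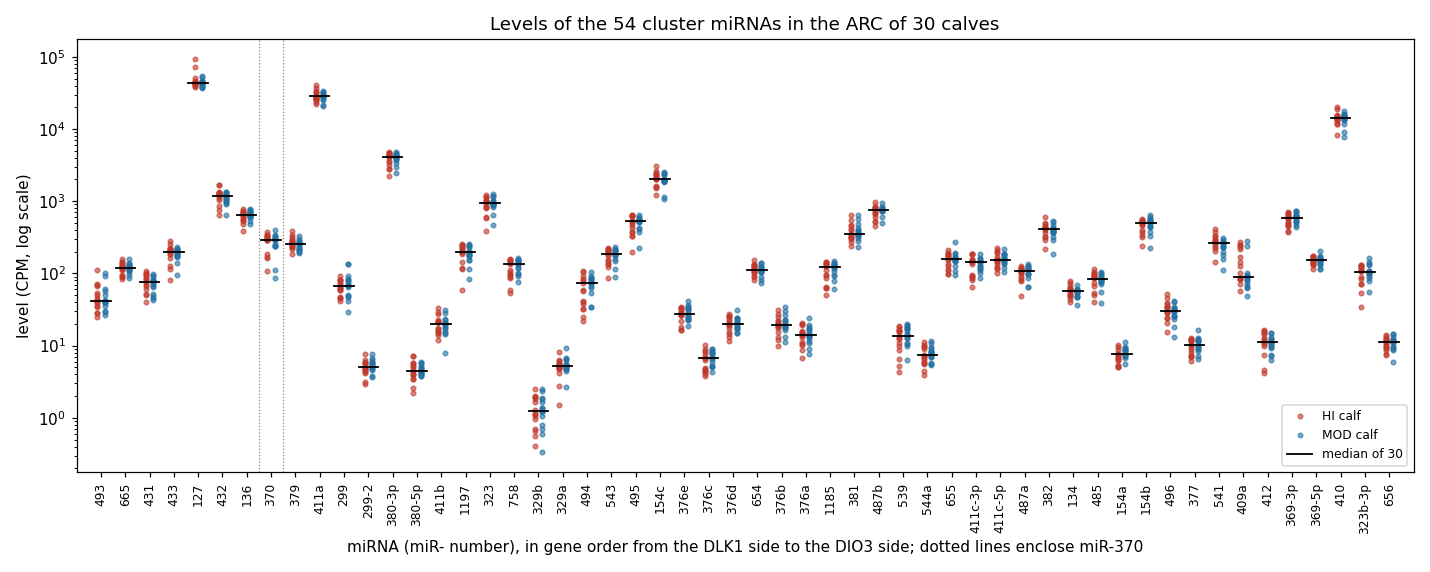
Level of each of the 54 cluster miRNAs (CPM, log scale) in 15 HI calves (red) and 15 MOD calves (blue), in gene order from the DLK1 side, with the median of 30 calves as a line. Levels run from a mean of 1.33 CPM for miR-329b to 46320 CPM for miR-127, and neighbouring genes can differ by a large factor. The highest points of miR-127 are 2 HI calves.

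Neighbouring genes could differ widely in level. Mean levels were under 10 CPM for 7 members, from 10 to 100 CPM for 16, from 100 to 1000 CPM for 25 and at 1000 CPM or more for 6. miR-127 lay between miR-433 at 189.9 ± 44.08 CPM and miR-432, and miR-411a lay next to miR-379 at 258.5 ± 46.11 CPM, the first gene of the second group. miR-134 was at 55.76 ± 9.17 CPM and miR-485, a miRNA that represses the synaptic vesicle protein SV2A, at 81.59 ± 19.05 CPM. miR-495, which can repress the growth factor BDNF, was at 493.1 ± 122.9 CPM, and miR-370 at 271.7 ± 78.03 CPM. miR-431, of the RTL1 antisense transcript, was at 74.34 ± 19.1 CPM and miR-381 at 385.7 ± 107.2 CPM. The 5 miR-376 members, known as targets of A-to-I RNA editing in brain, were all low, with means from 6.591 CPM (miR-376c) to 27.57 CPM (miR-376e). Several members share a number and differ by letter (miR-154a to c, miR-376a to e, miR-411a to c, miR-329a and b, miR-487a and b). Such names mark related sequences, though no sequences were compared here. How the authors' counting divided reads that fit more than 1 of them is not given in the sources used here, so the split within each set is uncertain. The lowest member, miR-329b, had 14 reads in the median calf.

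Calves differed in the members to much the same degree as in other miRNAs. The SD of log2(CPM + 0.25) over the 30 calves had a median of 0.373 among the members, beside 0.372 among the 422 tested non-members. The most even members were miR-369-5p (SD 0.192), miR-411a (0.216), miR-136 (0.229), miR-134 (0.239) and miR-665 (0.245). The most variable were miR-409a (0.744), miR-494 (0.647), miR-329b (0.607), miR-493 (0.566) and miR-539 (0.56). miR-329b had as few as 2 reads in a calf, so counting error enters its SD and its correlations. miR-127 was even but for 2 HI calves: it reached 94490 CPM in calf A17855 and 72370 CPM in calf A13745, and lay between 36790 and 53440 CPM in the other 28.

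For 3 precursors both arms of the hairpin were among the members. For miR-369 the 3p arm had 3.77 times the level of the 5p arm (mean log2 of 5p over 3p -1.92 ± 0.253, SD, n = 30). For miR-380 the 3p arm had 810 times the level of the 5p arm (-9.66 ± 0.359). The arms of miR-411c were nearly level at 0.274 ± 0.544, but the ratio ran from -0.508 to 1.48 and the arms did not move together over the calves (r = -0.178). No arm ratio passed for diet by a two-sided permutation test with 100000 resamples: HI minus MOD was 0.132 for miR-369 (p = 0.16, adjusted p = 0.479 over the 3 precursors), -0.00132 for miR-380 (p = 0.987, adjusted p = 0.987) and 0.0761 for miR-411c (p = 0.712, adjusted p = 0.987).

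Most members, but not all, moved together over the calves. Over all 1431 pairs of members the median Pearson r of log2(CPM + 0.25) was 0.424 (n = 30 calves), with 43.8% of pairs above 0.5 and 28.4% below 0 (lower quartile -0.085), while over 88831 pairs of tested non-members it was 0.0029, with 11.6% above 0.5 and 49.7% below 0. Between a member and a non-member the median r was 0.0121. With library size scaling in place of TMM the medians were 0.705 among members and 0.214 among non-members, and for residuals after the neuronal list they were 0.204 and 0.00909. These correlations are descriptions: all share the same 30 libraries, their depth and their scaling. The closest pairs were miR-433 with miR-432 (r = 0.959), miR-376b with miR-376a (0.951) and miR-1197 with miR-323 (0.948). The split of reads between miR-376b and miR-376a is uncertain. The first principal component held 50.3% of the members' variance and the next 19.9%.

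Distance in gene order hardly moved the median correlation. Members next to each other had a median r of 0.44, and members more than 10 places apart 0.402. Within the second group the median r was 0.442, between the groups 0.285, and within the first group -0.11. The low value of the first group came with split behaviour: miR-431, miR-433 and miR-432 had r of 0.791, 0.762 and 0.64 with the mean of the other members, miR-127 had -0.175 and miR-493 had -0.521.

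**Figure D2:**
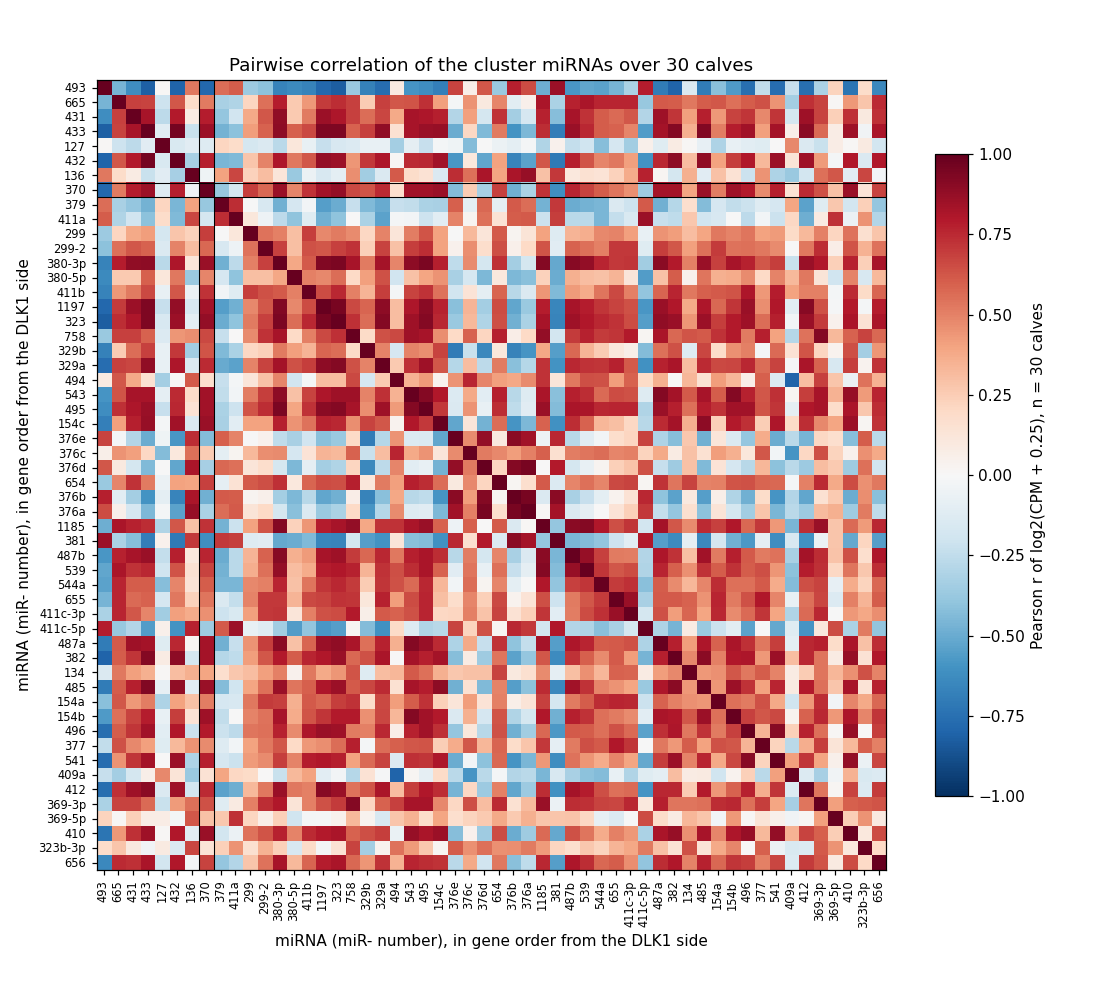
Pearson r of log2(CPM + 0.25) over 30 calves for each pair of the 54 cluster miRNAs in gene order, with black lines around miR-370. Red blocks (positive r) spread over both groups of genes, with a median r of 0.424 over all pairs. Blue stripes mark members such as miR-493, miR-381 and miR-376b that part from them.

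Against the mean z-score of the other members, 28 members had r above 0.7, 15 had r from 0.3 to 0.7, 3 had r from 0 to 0.3 and 8 had r below 0. The highest were miR-495 (0.929) and miR-543 (0.919). The 8 below 0 were miR-493 (-0.521), miR-381 (-0.281), miR-379 (-0.176), miR-127 (-0.175), miR-409a (-0.126), miR-411c-5p (-0.124), miR-376b (-0.0767) and miR-411a (-0.00614). The 5 miR-376 members moved with each other (median r 0.857 over 10 pairs). Pairs with miR-376c were lower, with r from 0.421 to 0.518, and miR-376c had r of 0.525 with the mean of the other members. As the split of reads within this set is uncertain, how far it enters these values was not tested. With the rest, the correlations of the 5 miR-376 members ran in both directions, with a median r of 0.00486 over 245 pairs and quartiles of -0.313 and 0.316. miR-376b had r of 0.904 with miR-381, miR-376a 0.869 with miR-136, and miR-376e -0.696 with miR-329b.

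Some libraries stood apart in markers of another tissue, and these correlations rest in part on them. A list of 10 miRNAs stood for pituitary epithelium (miR-375, miR-7, and the miR-200 and miR-182 to miR-96 families), and 8 of them passed the filter. These 8 summed to 50880 to 100400 CPM in 5 calves, 3 HI (A37824, A31979, A17855) and 2 MOD (A41971, A73759), and to 2289 to 22750 CPM in the other 25. A total of 2 of the 10 were at 0 in at least 1 calf. The list of 11 neuronal miRNAs, which includes miR-124 and miR-9, summed to 23100 to 47250 CPM in these 5 calves and to 55480 to 99230 CPM in the others, with none of the 11 at 0 in any calf. The endothelial and smooth muscle list of 4 miRNAs summed to 151300 to 338000 CPM in the 5 calves and to 49070 to 211700 CPM in the others. The oligodendrocyte list, with 3 of its 4 miRNAs tested, summed to 1424 to 2243 CPM and 2175 to 13880 CPM. The members' share of reads was lowest in MOD calf A41971 at 6.57% and HI calf A37824 at 7.20%, 2 of the 5, while A17855, also of the 5, had one of the highest at 13%, with 8.05% of all its miRNA reads from miR-127 alone. With miR-127 left out, the 5 calves had shares from 3.37% to 4.91%. Calves A42931 (4.18%), A27823 (4.31%), A97821 (4.56%) and A13745 (4.77%), outside the 5, lay in the same range. In bulk tissue, fewer cells of a type and less RNA per cell cannot be told apart.

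For residuals after the mean log2 level of the pituitary list, the median r was 0.363 among the members and 0.00481 among non-members. Without the 5 calves, the median r among the members was 0.302 (n = 25), beside 0.00321 among non-members, and 5 calves are too few for a value of their own. Several members changed in their relation to the rest. The median r of the miR-376 members with the others was 0.393 in place of 0.00486. With the mean of the other members, miR-381 had r of 0.555 (-0.281 over all 30 calves), miR-376a 0.745 (0.096), miR-136 0.748 (0.351) and miR-379 0.346 (-0.176), while miR-493 was near 0 at 0.0354 (-0.521). Other members went the opposite way: miR-432 fell from 0.64 to 0.193, miR-329b went from 0.308 to -0.138 and miR-380-5p from 0.304 to -0.182. With miR-127 (-0.266) and miR-409a (-0.255), these last made 4 members below 0. The number of members with r above 0.7 went from 28 to 10.

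Levels in the 5 calves show the split. miR-493 was at 110.4 CPM in A37824, 101.4 in A73759, 93.41 in A41971, 71.05 in A17855 and 69.11 in A31979. In the other 25 calves it lay lower, between 24.78 and 66.49 CPM. miR-381 was at 654.1 CPM in A37824, 653.5 in A73759, 559.3 in A41971, 548.4 in A17855 and 450.9 in A31979, against 229.1 to 484.5 CPM in the others, with 1 of the 5 inside that range. miR-370 went the other way, at 87.61 CPM in A41971, 109.1 in A37824, 112.8 in A73759, 168.5 in A17855 and 184.8 in A31979, against 165.3 to 399.3 CPM in the others. miR-410 was at 7778 CPM in A41971, 8227 in A37824 and 9114 in A73759, below the 11690 to 19910 CPM of the 25 calves, while A17855 at 11910 and A31979 at 12860 were inside that range. The part of these marker lists in the levels was not tested.

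**Figure D3:**
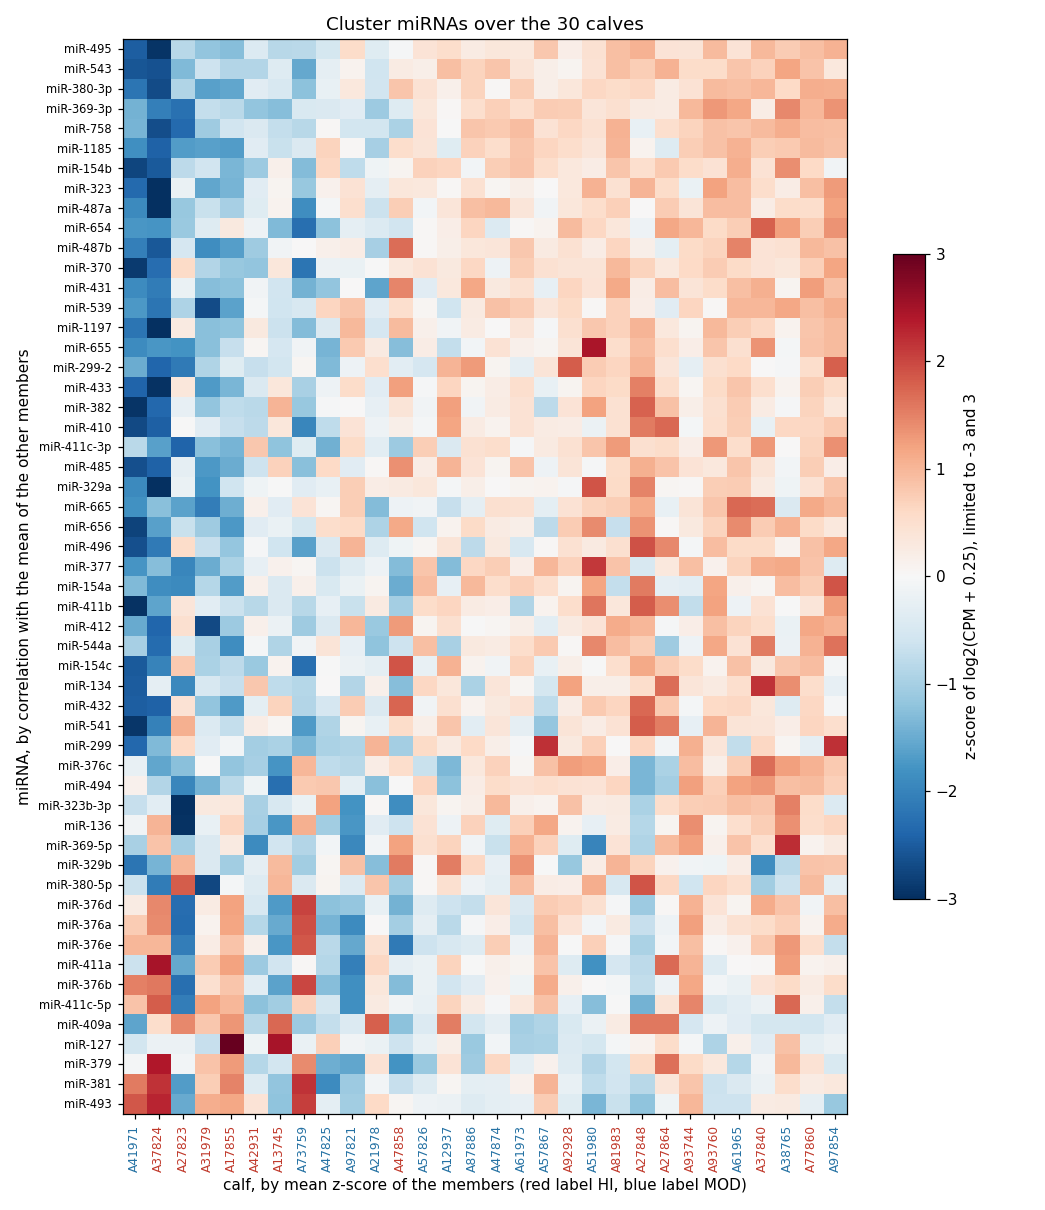
z-score of log2(CPM + 0.25) of the 54 cluster miRNAs (rows, by correlation with the mean of the other members) in the 30 calves (columns, by mean z-score; red labels HI, blue labels MOD). Calves A41971 and A37824, with mean z-scores of -1.42 and -1.25, are low for most members and high for those at the bottom, such as miR-381 and miR-493.

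Outside the 5 calves, HI calf A27823 also had a low mean z-score (-0.858). Its pituitary list sum was 2323 CPM and its oligodendrocyte list sum 13880 CPM, the highest of all calves, while its neuronal list sum of 97660 CPM was among the highest. It had the lowest level of miR-136 (392.6 CPM), of miR-376a (6.816 CPM), miR-376b (9.831 CPM) and miR-376d (11.67 CPM), and of miR-493 (24.78 CPM). The same calf was also lowest in miR-369-3p (378.3 CPM), miR-411c-5p (100.4 CPM), miR-411c-3p (64.89 CPM), miR-323b-3p (34.48 CPM), miR-377 (6.161 CPM) and miR-154a (4.981 CPM).

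Other miRNAs of the region, outside the rule, were set beside the members. Of the 7 remaining miRNA genes between DLK1 and DIO3, miR-453 and miR-3578 are listed at 0 and miR-1193 had at most 4 reads in a calf. miR-3957 at 88.34 ± 16.35 CPM (SD, n = 30) had r of 0.891 with the mean of the members, above 98.6% of tested non-members, and 0.821 without the 5 calves. miR-3956 at 34.86 ± 11.22 CPM had r of 0.626, which fell to 0.032 without them. miR-668-3p at 7.535 ± 1.829 CPM had r of 0.564, or 0.291 without them. miR-1247-5p at 51.81 ± 35.53 CPM, whose gene lies nearest to DIO3, had r of -0.219, or 0.393 without them.

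Among non-members of the whole table, those most like the mean of the members were miR-1343-3p (r = 0.913), miR-873 (0.908), miR-137 (0.907), miR-10172-3p (0.9) and miR-935 (0.896), of which miR-137 is also in the neuronal list. Most opposite were miR-151-3p (-0.912) and miR-151-5p (-0.906), which arise from an intron of PTK2, and miR-16b (-0.899), miR-27a-3p (-0.88) and miR-27b (-0.858). All 10 kept their sign without the 5 calves, with r from 0.786 to 0.857 for the like and from -0.824 to -0.755 for the opposite miRNAs (n = 25).

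Diet was compared between all 15 HI and 15 MOD calves, the question of the study being how the early-life plane of nutrition alters the ARC. No member was called different between the diets by limma at an adjusted p under 0.1 (Benjamini-Hochberg over 476 miRNAs) with a fold change over 1.5. The background was 0 of 476 miRNAs (0%). On the recovered reads, edgeR's quasi-likelihood test called 0 members and 0 of 476 miRNAs (0%), and DESeq2 called 0 members and 1 of 476 (0.21%). At an unadjusted p under 0.05 there was 1 member of 54, where 21 of all 476 (4.41%) passed. With DESeq2 there were 2 members, where 21 of 476 (4.41%) passed, and with edgeR 1, where 20 of 476 (4.2%) did.

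Over the members, 21 were higher and 33 lower in HI than in MOD calves, with a median log2 fold change of -0.0456, beside 235 higher and 241 lower of all 476 with a median of -0.0022. These splits depend on the scaling: with library size only, 15 members were higher and 39 lower (166 and 310 of all), and with upper quartile scaling 27 and 27 (291 and 185 of all). In the first group 5 of 7 were higher in HI calves (median 0.0162) and in the second group 31 of 46 were lower (median -0.061). The 5 miR-376 members had log2 fold changes from -0.169 to -0.0396. The 95% intervals of 51 members lay within a 1.5-fold change in either direction, and those of the other 3, miR-409a, miR-494 and miR-539, reached beyond it.

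**Figure D4:**
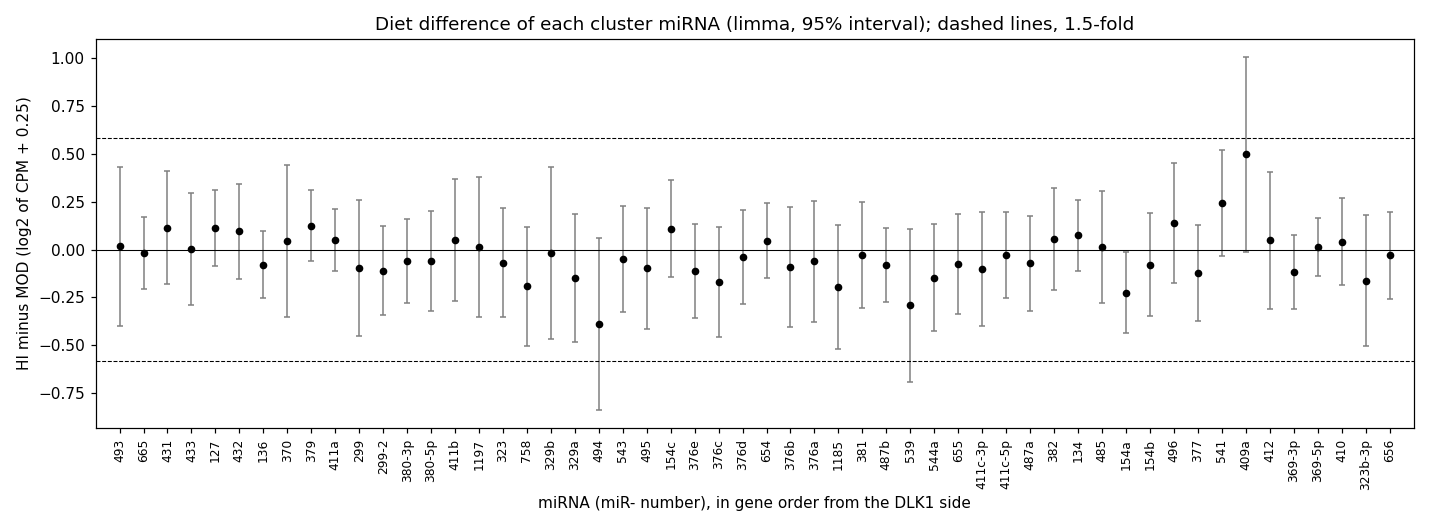
Difference of each cluster miRNA between HI and MOD calves (HI minus MOD of log2(CPM + 0.25), limma on 15 against 15 calves, bars are 95% intervals), in gene order. Only the interval of miR-154a excludes 0, and the intervals of miR-494, miR-539 and miR-409a cross the dashed lines at 1.5-fold.

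miR-154a had the smallest p. It ran from 4.981 over a median of 6.982 to 10.32 CPM in HI calves and from 5.631 over 8.297 to 11.06 CPM in MOD calves. The ranges overlapped over most of their length, and 3 of 15 HI calves were above the MOD median. Its log2 fold change was -0.23 (SE 0.10), with an unadjusted p of 0.0363 and a limma adjusted p of 0.912, so it did not pass.

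miR-541 ran from 143.5 over a median of 276.7 to 407.1 CPM in HI and from 112.0 over 254.6 to 312.4 CPM in MOD calves. The HI range reached higher but held most of the MOD range. Its log2 fold change was 0.25 (SE 0.14, limma adjusted p = 0.912). With the neuronal list as a covariate it was 0.33 (limma adjusted p = 0.0673), short of the 1.5-fold threshold, and 6 members were then under an unadjusted p of 0.05, where 37 of 476 miRNAs (7.77%) were.

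miR-539 ran from 4.285 over 12.68 to 18.57 CPM in HI and from 6.293 over 14.52 to 19.83 CPM in MOD calves, with a log2 fold change of -0.29 (SE 0.20, limma adjusted p = 0.912). The 3 most abundant members had small fitted differences. miR-127 ran from 38120 over 43930 to 94490 CPM in HI and from 36790 over 43720 to 53440 CPM in MOD calves (log2 fold change 0.11, SE 0.10, limma adjusted p = 0.978). miR-411a had a log2 fold change of 0.05 (SE 0.08, limma adjusted p = 0.982) and miR-410 of 0.04 (SE 0.11, limma adjusted p = 0.984). Among members with known roles in neurons, the log2 fold change was 0.07 (SE 0.09) for miR-134, 0.01 (SE 0.14) for miR-485 and -0.10 (SE 0.16) for miR-495, and none passed.

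Without the 5 calves with high pituitary list sums, no member and 0 of 476 miRNAs (0%) were called (lowest limma adjusted p 0.836 among members and 0.388 among all) and 2 were under an unadjusted p of 0.05, where 20 of 476 miRNAs (4.2%) were.

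The members with the largest fitted diet differences, miR-409a (log2 fold change 0.50, SE 0.25, limma adjusted p = 0.912) and miR-494 (-0.39, SE 0.22, limma adjusted p = 0.912), also differed along the animal codes. In earlier work on these values the 9 calves with the lowest codes were seen to stand apart, and 7 of them are HI and 2 MOD, so the code class is unequal between the diets. miR-409a was at 144.4 to 277.8 CPM in these 9 and at 48.36 to 124.9 CPM in the other 21, a 2.89-fold ratio of medians. miR-494 was at 21.68 to 41.94 CPM in the 9 and at 52.76 to 108.2 CPM in the 21, a 2.34-fold ratio in the other direction. These 2 of the 54 members did not overlap between the code classes, where 7 of 476 miRNAs (1.47%) did not. The code class and the difference of miR-409a along it were known from the earlier work on the same values. Their separation is therefore a description and not a test. The correlation of miR-409a with miR-494, taken over the same calves, was one of the lowest (r = -0.801), and their genes lie in the same group.

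**Figure D5:**
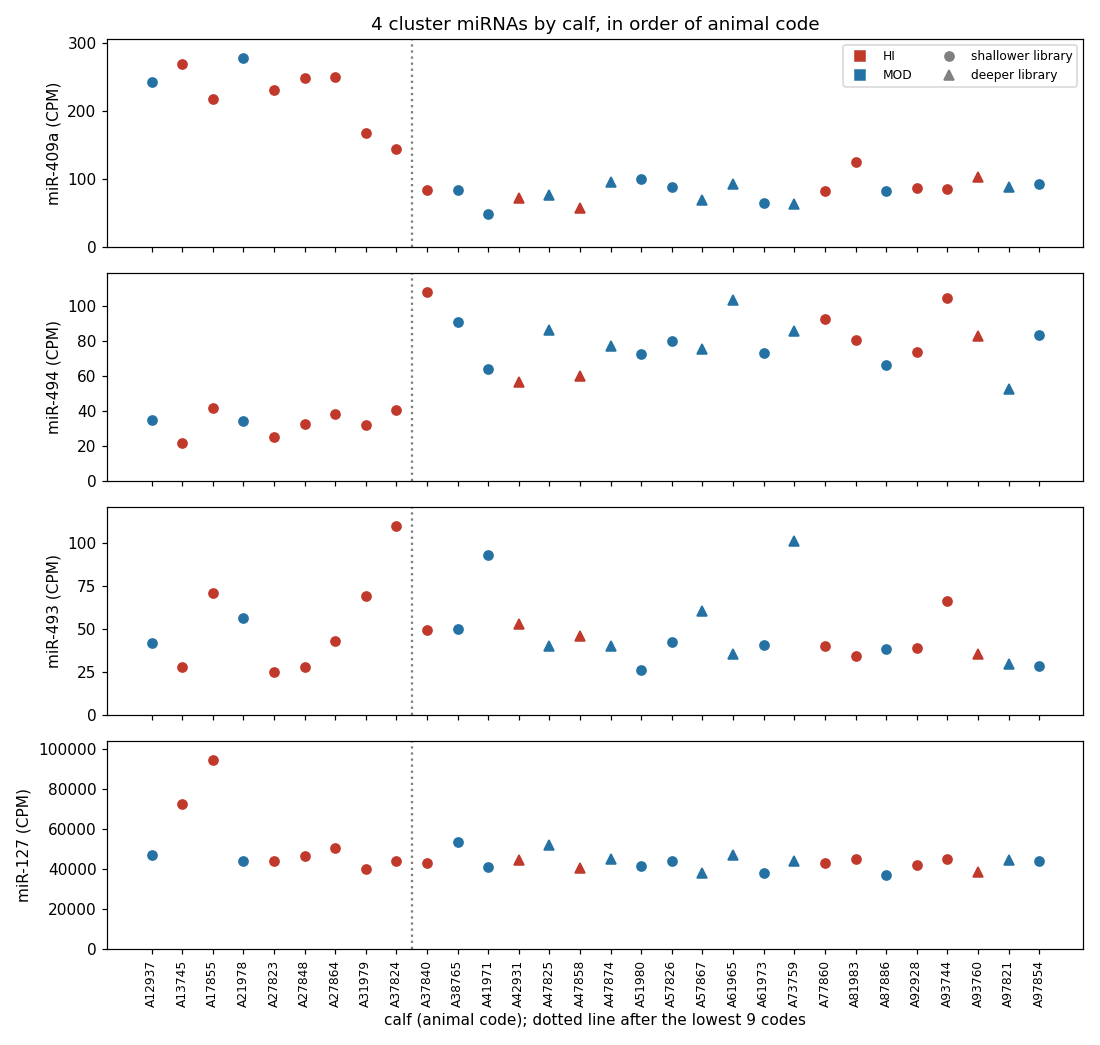
Levels (CPM) of miR-409a, miR-494, miR-493 and miR-127 in each of the 30 calves in order of animal code (red HI, blue MOD, circles shallower and triangles deeper libraries), with a dotted line after the lowest 9 codes. miR-409a is at 144.4 CPM or more to the left of the line and at 124.9 CPM or less to its right, miR-494 shows the opposite order, and miR-493 and miR-127 rise in single calves.

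Within the code classes the diet differences rest on few calves, 7 HI against 2 MOD among the lowest codes and 8 HI against 13 MOD among the others. For miR-409a, HI minus MOD on the log2 scale was -0.284 among the 9 lowest codes and 0.108 among the other 21, so its sign in the 9 was opposite to that over all calves. For miR-494 it was -0.0959 and 0.0681. The 9 libraries are all shallower ones, from 7692951 to 8988039 reads. Among the 12 other shallower libraries, with 6291376 to 7974195 reads, miR-409a was at 48.36 to 124.9 CPM and miR-494 at 63.76 to 108.2 CPM. These 12 are part of the 21, so their lack of overlap with the 9 follows from the ranges given above and adds nothing on depth. The neuronal list had medians of 79910 CPM in the 9 and 70050 CPM in the 21, the pituitary list 7129 and 5550 CPM, the endothelial and smooth muscle list 128100 and 103100 CPM, the erythroid list 33270 and 29060 CPM, and the leukocyte and microglia list 1372 and 1637 CPM. The choroid plexus and ependyma list had medians of 27630 and 31190 CPM, and the oligodendrocyte list 3050 and 2719 CPM. The part of these lists, of depth and of diet in the difference between the code classes was not tested. What the animal codes stand for is not given in the sources used here.

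Depth class was tested in the same way, with diet in the model. No member was called between deeper and shallower libraries (0 of 476 miRNAs, 0%), nor by edgeR or DESeq2 (0 of 476 miRNAs, 0%, with each). At an unadjusted p under 0.05 there was 1 of 54 members, miR-409a (deeper minus shallower -0.61, SE 0.26, unadjusted p = 0.027, limma adjusted p = 0.783), beside 24 of 476 miRNAs (5.04%), and the 9 calves with high miR-409a are all in the shallower class.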

How the data were processed

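The authors trimmed small RNA reads from ARC tissue, removed other short RNAs and profiled known bovine miRNAs with miRDeep2 on ARS-UCD1.2. The submitters' notes list FastQC 0.11.8, cutadapt 2.6, R 3.4 and edgeR 3.5. The labels name a stranded RNA kit where the methods name a small RNA kit. The authors deposited signal values per mature miRNA and calf: they are CPM over TMM-scaled library sizes, since recomputing TMM moved them by at most 0.00597%. Reads were recovered by dividing by the worth of 1 read in each library, and 94.5% to 97.9% of values under 200 reads came within 0.1 of a whole number. They were rounded for the filter (edgeR's filterByExpr) and the count tests.

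As the deposited values are not counts, limma (lmFit, eBayes with trend) on log2(CPM + 0.25) was the main test, over all 476 miRNAs with Benjamini-Hochberg adjustment, with calls at an adjusted p below 0.1 where the fold change was over 1.5. Fold changes on this scale understate those of low miRNAs. A floor of 3 reads covers counting error only, as do all statements on depth. Diets came from the sample labels, with 1 calf per library and no pairing. Alternatives covered scaling, pseudocount, filter, count tests, covariates and left-out calves. Code was tested on simulated counts. Named members were those with an unadjusted p under 0.05 for diet or, as these were under 5, the 5 smallest, the 10 most abundant, the 5 most and 5 least variable, both arms of precursors, those with known roles and miR-409a, and the 5 non-members most like and 5 most opposite to the members. Others named were chosen after their values were seen. The members, lists and tests were chosen with earlier results of these data known. Of 7 marker lists, leukocyte and microglia sums ran from 1190 to 2325 CPM, erythroid from 21180 to 40320 CPM, choroid plexus and ependyma from 22240 to 44590 CPM, oligodendrocyte from 1424 to 13880 CPM and endothelial and smooth muscle from 49070 to 338000 CPM over the calves. Sums and means of the lists cover only the miRNAs that passed the filter. Gene names and order are RefSeq's on ARS-UCD2.0. No miRNA sequences or genome were used here. Versions were limma 3.58.1, edgeR 4.0.16 and DESeq2 1.42.0 under R 4.3.3, with scipy 1.17.1 under Python 3.11.15.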

Additional observations from a re-analysis of the deposited data

How the results depend on the processing

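The count of 0 members called for diet held under every alternative run, including leaving out each calf, and the count of 0 for depth class under the alternative scalings, pseudocounts, filters and count tests (no calf was left out there). Over all tested miRNAs the diet count was 0 or 1 (0.21%) under these alternatives and the depth count 0. The number of members under an unadjusted p of 0.05 for diet, 1 as reported, was 0 with library size scaling (2.1% of all miRNAs), upper quartile scaling (4.2%) or a term for animal code class (2.1%), 2 with DESeq2 (4.41%), with the pituitary list as covariate (6.09%), without A37824 and A41971 (4.41%) or without the 5 calves with high pituitary list sums (4.2%), 6 with the neuronal list as covariate (7.77%), and 0 to 3 when 1 calf was left out (2.94% to 7.35% of all miRNAs). The median r among the members, 0.424, was 0.705 with library size scaling (0.214 among non-members), 0.497 in the shallower and 0.296 in the deeper libraries, 0.204 for residuals after the neuronal list, 0.327 without A37824 and A41971 and 0.302 without the 5 calves. Leaving out 1 calf gave 0.376 to 0.457. The median SD of log2 among members, 0.373, was 0.507 with library size scaling. The cause of these shifts was not tested. Of 15 members followed for diet, signs turned in 11 of 255 values under other settings and in 2 of 450 with 1 calf left out: with the code class as a term miR-494 was at 0.0289, miR-411a at -0.00134, miR-380-3p at 0.0551, miR-323 at 0.0338 and miR-487b at 0.0237. With the neuronal list miR-380-3p was at 0.0171 and miR-323 at 0.0334. Library size scaling put miR-410 at -0.00153, leaving out 1 calf moved it between -0.0163 (without A41971) and 0.0964, and moved miR-323 between -0.136 and 0.0124 (without A37824), and without the 5 calves miR-411a was at -0.0293 and miR-323 at 0.00698. No paired analysis was possible because each calf had 1 diet and the labels give no number, farm or sire that ties calves across the diets; replicate numbers here only follow accession order. Low members limit precision: 7 had means under 10 CPM, and 3 reads are worth at least 0.138 and at most 0.558 CPM depending on the library.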
